A study of Mus musculus with 3 samples.

Results

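Type A intercalated cells, the acid-secreting cells of the distal nephron and collecting duct, were picked from droplet single-cell libraries of mouse kidney by the genes they contained. A barcode had to hold UMIs of at least 2 of Atp6v1g3, Atp6v0d2 and Foxi1, at least 2 UMIs of Slc4a1, Aqp6 and Kit in sum, and more of these than of Slc26a4, Insrr and Spink8. It could hold at most 2 UMIs of the nephron genes Lrp2, Slc34a1 and Slc12a1 in sum, and at most 1 UMI of the leukocyte genes Ptprc and Tyrobp in sum. Of 48404 kept barcodes, 350 met the rule, namely 108, 126 and 116 in the libraries of Aoah-/- replicate 2, Aoah-/- replicate 3 and WT replicate 3. Sets of 3 values follow this order throughout. The measured UMIs of the genes named above chose these cells, so that the levels of those genes are descriptions only.

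Intercalated cells regulate acid and base balance. The type A cell pumps protons into the urine with a vacuolar H+-ATPase (V-ATPase), which has a cytosolic V1 sector that splits ATP and a membrane V0 sector that conducts protons. Carbonic anhydrase inside the cell supplies the protons, and the bicarbonate leaves to the blood through the anion exchanger AE1, the product of Slc4a1. The type B cell carries the bicarbonate exchanger pendrin (Slc26a4) on the urine side, and both types depend on the forkhead factor FOXI1, while Notch signalling steers neighbouring cells toward the principal cell, which takes up water and sodium.

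Kidneys were taken on day 14 after folic acid (FA), which injures tubules and which all 3 mice had received. The labels give an age of 6 to 8 weeks without naming the step it refers to, and the study's text gives another range. The Aoah-/- animals, replicates 2 and 3, lack the gene in the whole body and had been backcrossed to C57BL/6J, and the single WT animal, replicate 3, came from the littermate controls of that line. AOAH, acyloxyacyl hydrolase, removes acyl chains from bacterial lipopolysaccharide, and the design asks how kidney cells differ when the gene is absent after FA injury. Each kidney was digested to single cells and each mouse gave 1 library, so that genotype was compared without a test. Each unique molecular identifier (UMI) counts 1 RNA molecule irrespective of transcript length, which allows levels to be compared between genes, and levels are given as UMIs per 1000000 UMIs of a cell class (CPM). The libraries held 167222984, 161015021 and 158551992 UMIs in 25516, 24693 and 23072 barcodes. The lowest UMI total of a deposited barcode was 500, 1672 and 500, and the common minimum of 1672 UMIs, with a floor of 200 genes and a ceiling of 50% for mitochondrial UMIs, left 15441, 19692 and 13271 barcodes. Over all deposited barcodes, Aoah itself was at 6.06, 5.68 and 15.3 CPM, lower in both knockout libraries but not at 0. Counts from the 3' end may lie outside the deleted part, which is not given in the sources used here. In type A cells Aoah gave 1, 1 and 0 UMIs. The 3 libraries shared 171 to 176 cell barcodes pairwise, and no type A barcode was shared with a type A barcode of another library. Doublets were neither called nor removed.

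In type A cells each rule gene was at similar levels in the 3 libraries. The rule genes were, apart from Spink8, nearly absent from principal cells. The rule of the principal cells, given below, limited these genes, so that their low levels there are fixed by it. Slc4a1 was at 634, 643 and 599 CPM in type A cells, at 6.18, 13.6 and 25.4 CPM in type B cells and had no UMI in principal cells. Aqp6, a channel of intracellular vesicles, was at 931, 985 and 998 CPM in type A and 30.0, 68.8 and 81.3 CPM in type B cells. Kit, the stem cell factor receptor, was at 387, 511 and 456 CPM in type A cells and 40.6, 32.8 and 32.0 CPM in type B cells. All 3 class genes were therefore higher in type A cells of every library, as the rule required. The pump subunit gene Atp6v1g3 was the most abundant gene of the rule, with 3602, 3989 and 3150.1 CPM in type A and 5364, 5740.2 and 5109.9 CPM in type B cells, and Foxi1 stood at 634, 580.1 and 481 CPM in type A cells. Of the type B genes, Slc26a4 had 16.6, 11.3 and 13.3 CPM and Insrr 23.7, 15.8 and 16.4 CPM in type A cells, whereas Spink8, a protease inhibitor gene, kept 160.5, 145 and 183 CPM. Spink8 was also at 57.4, 83.6 and 76.9 CPM in principal cells, although their rule limited it too. None of the 5 markers of the type A label, Slc4a1, Aqp6, Kit, Atp6v1g3 and Foxi1, was at 0 in any library.

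**Figure D1:**
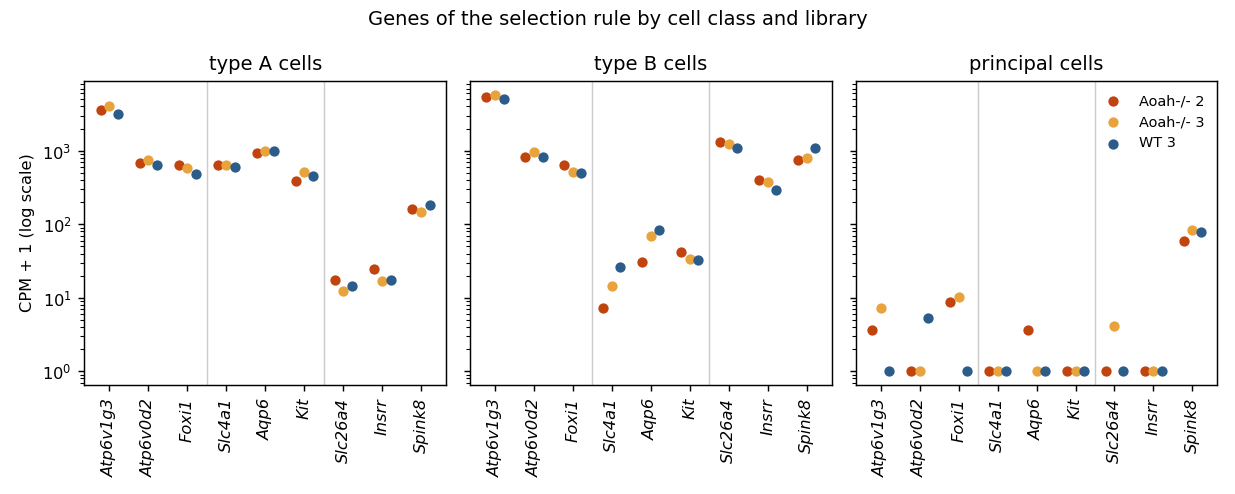
Levels of the 9 genes that define intercalated cells (left 3 genes), type A cells (middle 3) and type B cells (right 3), as CPM with 1 added on a log axis, in type A, type B and principal cells. Each point is 1 library. Slc4a1, Aqp6 and Kit lie between 387 and 998 CPM in type A cells and below 100 CPM in type B cells.

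The type A cells varied in depth and in how firmly the rule held them. They held 1696 to 37506 UMIs, with medians of 10944, 10597 and 12533.5, while the type B cells had medians of 18722, 13354 and 18500.5 and the principal cells of 6912, 3591 and 6516. All 3 of Slc4a1, Aqp6 and Kit were detected in 235 of the 350 cells, 2 of them in 80 and 1 of them in 35. Kit was found in 94.4, 91.3 and 93.1% of the cells, Aqp6 in 80.6, 77.0 and 92.2% and Slc4a1 in 79.6, 74.6 and 89.7%. At the threshold, 18 type A cells had exactly 2 UMIs of the class genes, of which 11 were in Aoah-/- replicate 3 with a median of 2182 UMIs in all. Just outside it lay 19 intercalated cells with 1 UMI and none of the type B genes, 14 of them in Aoah-/- replicate 3, and 8 cells with as many type A as type B UMIs. A UMI of Slc26a4, Insrr or Spink8 was present in 64.8, 57.1 and 69.0% of the type A cells.

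Compared with type B cells, type A cells differed in many genes outside the rule. The 326 type B cells met the same rule with the class genes exchanged, so that Slc26a4, Insrr and Spink8 prevailed. The 176 principal cells held at least 2 UMIs of Aqp2, 2 or more of Aqp2, Fxyd4 and Hsd11b2, and at most 1 of the 3 intercalated genes. They could hold at most 1 UMI of Slc4a1, Aqp6 and Kit in sum and at most 1 of Slc26a4, Insrr and Spink8. The limits on nephron and leukocyte genes were those of type A cells. Of 9277 genes tested after the 17 genes of the cell rules had been left out, 442 (4.76%) were higher and 536 (5.78%) were lower in type A cells by edgeR's quasi-likelihood test with the mouse as a block (Benjamini-Hochberg adjusted p under 0.05). Of these, 438 and 531 had the same direction in all 3 mice. The cells of both classes came from the same 3 libraries and the test compares classes within mice, so that the p-values describe cells chosen by other genes of the same libraries. DESeq2 with the same design called 190 higher and 257 lower, all of them among the edgeR calls. Without Aoah-/- replicate 3 the edgeR counts were 280 higher and 336 lower, and without Aoah-/- replicate 2 or the WT replicate 307 and 355 were lower.

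The largest rises were in a transcription factor gene and its neighbour. The genes named as largest rises and falls were chosen with the same direction in all 3 mice. Agreement between mice is therefore fixed by that choice, and separation of the classes is favoured by it. Dmrt2, a doublesex-related transcription factor, was at 179, 223 and 159 CPM in type A cells and 3.09, 6.26 and 5.75 CPM in type B cells (log2 fold change 5.24, SE 0.20, adjusted p = 2.56e-11). The non-coding 2610016A17Rik followed with 104, 164 and 122 CPM against 3.53, 5.74 and 0 CPM (log2 fold change 5.17, SE 0.28, adjusted p = 2.29e-09). The type A values of both genes lay above every type B value, and neither gene had a UMI in principal cells. They are neighbours on chromosome 19 of mm10 (GRCm38) in the GENCODE M21 annotation, with 2610016A17Rik at chr19:25671134-25672253 on the minus strand and Dmrt2 at chr19:25672411-25678991 on the plus strand, so that they do not overlap, are separated by 157 bases and are transcribed away from each other. The promoter window of Dmrt2 (RefSeq, GRCm38.p6, chr19:25672161-25672460, plus strand, 250 bases before the start and 50 from it) is shown because both transcripts start within it, and the capitals mark the 171 bases between the RefSeq starts of the pair.
Dmrt2: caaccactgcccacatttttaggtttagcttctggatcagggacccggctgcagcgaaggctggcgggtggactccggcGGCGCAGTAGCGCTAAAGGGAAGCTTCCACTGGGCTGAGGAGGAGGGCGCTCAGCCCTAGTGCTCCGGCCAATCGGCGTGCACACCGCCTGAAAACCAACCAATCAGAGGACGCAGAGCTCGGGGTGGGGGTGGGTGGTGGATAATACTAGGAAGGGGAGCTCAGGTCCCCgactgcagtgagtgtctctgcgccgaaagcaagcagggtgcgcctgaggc
The window was 62.7% G and C, where the median of all promoter windows was 52.7%.

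Mme, the membrane endopeptidase neprilysin, was at 814, 868 and 724 CPM in type A and 32.6, 41.2 and 61.6 CPM in type B cells (log2 fold change 4.18, SE 0.17, adjusted p = 1.26e-11), with at most 1 UMI per library in principal cells. Adgrf5, an adhesion receptor, was at 905, 1069.6 and 895 CPM against 80.3, 110.0 and 55.0 CPM (log2 fold change 3.52, SE 0.24, adjusted p = 5.44e-09). These were the most abundant of the 15 largest rises, and no type A value of either gene fell near a type B value. Muc20, a membrane mucin, was at 61.7, 94.3 and 91.7 CPM against 1.76, 8.34 and 3.28 CPM (log2 fold change 4.13). Pigr, the receptor that carries IgA across epithelia, was at 87.0, 119 and 77.8 CPM against 23.8, 18.2 and 9.85 CPM (log2 fold change 2.39). Slc16a11, of the monocarboxylate transporter family, was at 62.5, 78.4 and 49.3 CPM against 7.50, 9.91 and 18.1 CPM. All 3 genes were higher in type A cells of each mouse, as the choice of the largest rises required.

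Of the remaining members of the 15 largest rises, Tgif1, a homeodomain repressor, was at 184, 239.9 and 204 CPM in type A and 26.9, 21.4 and 36.9 CPM in type B cells (log2 fold change 2.88, SE 0.16, adjusted p = 6.85e-10). Sox9, a factor of tubule repair and development, had 55.3, 67.9 and 32.9 CPM against 8.82, 11.5 and 4.10 CPM (log2 fold change 2.62). Runx1 had 74.3, 73.9 and 39.8 CPM against 8.38, 10.9 and 15.6 CPM (log2 fold change 2.48). In both Sox9 and Runx1 the WT mouse had the lowest type A level, yet it stayed above all type B levels. Ckb, the brain-type creatine kinase, was at 189, 121 and 135 CPM against 18.5, 27.1 and 23.8 CPM, and Cbr2, a carbonyl reductase, at 45.1, 119.9 and 87.2 CPM against 7.06, 9.38 and 2.46 CPM. The phosphatidylinositol transfer gene Pitpnc1 was at 70.4, 60.3 and 46.8 CPM against 4.85, 4.17 and 3.28 CPM. Tmem158 and the LIM-domain gene Pdlim3 rose by 2.68 and 2.61 on the log2 scale. All 15 rises had an adjusted p of at most 3.23e-06 in the edgeR test.

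The largest falls were genes that type A cells hardly contained. Syt7, a calcium sensor of vesicle fusion, was at 1.58, 0.754 and 2.53 CPM in type A and 178, 222 and 109 CPM in type B cells (log2 fold change -6.55, SE 0.27, adjusted p = 6.57e-11). Hmx2, a homeobox factor, was at 10.3, 33.9 and 13.3 CPM against 715, 702 and 689 CPM (log2 fold change -5.25, SE 0.23, adjusted p = 2.56e-11). All Hmx2 UMIs of the type A pools came from 2, 2 and 1 cells. Igfbp5, which binds insulin-like growth factors, was at 53.8, 12.8 and 22.1 CPM against 678, 798 and 723 CPM (log2 fold change -4.71, SE 0.40, adjusted p = 1.23e-07). The classes did not overlap in any of these 3 genes, and Hmx2 and Igfbp5 were the more abundant of them in type B cells. Lsamp, a surface adhesion gene, had no UMI in type A cells of either Aoah-/- mouse and 4 in those of the WT mouse, while type B cells had 56.9, 66.7 and 48.4 CPM. Ank, which exports pyrophosphate, Aldh1l2, a mitochondrial folate enzyme, and Thsd7a were below 10 CPM in every type A pool and above 60 CPM in every type B pool. Chic1, Enpp2 (autotaxin) and Nbea (a vesicle traffic protein) fell by 4.14, 3.68 and 3.48 on the log2 scale. The Lsamp call was lost under DESeq2, the only one of the 25 named genes with a changed call under the alternatives that returned a value for it.

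**Figure D2:**
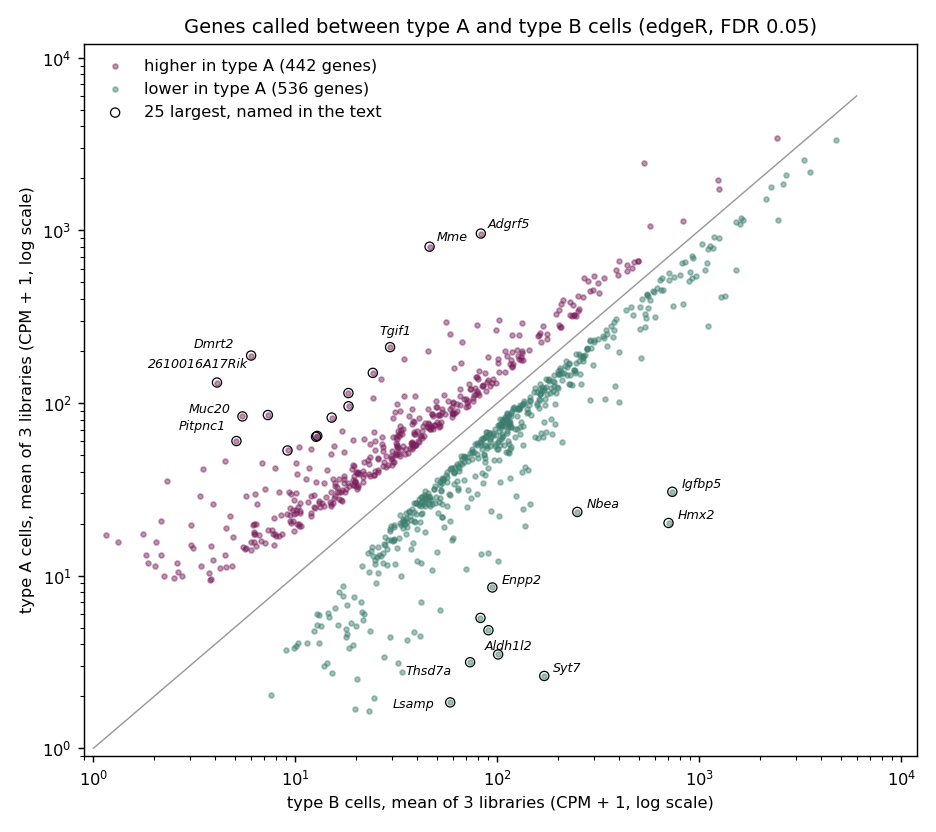
Mean levels over the 3 libraries of the 978 genes called between the classes, with type B cells on the x axis and type A cells on the y axis, as CPM with 1 added on log axes. Points above the line (442 genes) were higher and points below it (536 genes) lower in type A cells. Rings mark the 25 genes named in the text as the largest rises and the largest falls, each ranked separately. Mme and Adgrf5 combine a high level with a large rise, and Hmx2 and Igfbp5 are the most abundant of the ringed falls in type B cells.

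No gene of the proton pump outside the rule was called higher in type A than in type B cells. The 22 V-ATPase genes not used by the rule summed to 9059, 9682 and 8848 CPM in type A cells, 10799.9, 11521 and 10780.3 CPM in type B cells and 3593, 3213 and 3422 CPM in principal cells. Against type B cells, 0 of the 10 V1 genes tested rose and 2 fell, and 0 of the 8 V0 and accessory genes rose and 4 fell (4.76 and 5.78% of all genes), with median log2 fold changes of -0.24 and -0.39 where the median of all 9277 genes was 0.01. The fall was largest in Atp6v1c2, a C subunit isoform of the pump, at 349, 383 and 359 CPM in type A and 763, 743 and 712 CPM in type B cells (log2 fold change -1.05, SE 0.11, adjusted p = 3.42e-06). Atp6ap2, the prorenin receptor, was at 327, 345 and 304 CPM against 541, 532 and 536 CPM (log2 fold change -0.74, SE 0.11, adjusted p = 1.83e-04). Both genes were lower in type A cells of each mouse. Atp6v1a, the catalytic A subunit, was the most abundant at 1671, 1690.4 and 1597 CPM and did not pass the test (log2 fold change -0.27, SE 0.11, adjusted p = 0.126). Atp6v1b1, the B subunit isoform mutated in distal renal tubular acidosis with deafness, was the one V1 gene with a positive value, 537, 622 and 511 CPM against 434, 563 and 408 CPM, and did not pass either (log2 fold change 0.23, SE 0.10, adjusted p = 0.165).

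Against principal cells the pump genes rose, as 8 of the 10 V1 genes and 5 of the 8 V0 genes were higher and 1 was lower, beside 979 of all genes higher (10.6%) and 853 lower (9.19%). Atp6v1b1 had a mean of 142 CPM in principal cells and a log2 fold change of 1.79, and Atp6v0a4, the kidney isoform of the V0 a subunit, 145 CPM and 1.99. Atp6v1c2 had 1 UMI in the 3 principal pools together. The exception was Atp6v0d1, the widely expressed d subunit, which was lower in type A cells (log2 fold change -1.18, SE 0.16, adjusted p = 2.00e-05). The promoter windows of RefSeq were searched for the forkhead core TGTTTA on both strands because FOXI1 is a forkhead factor. It occurred in 1 of the 18 V-ATPase genes with a window, Atp6v1b1, and in 1 of the 9 matched bicarbonate and carbonic anhydrase genes, Car12, whereas 15.1% of all 27025 genes had it in a window of this length. The Atp6v1b1 window (GRCm38.p6, chr6:83742767-83743066, plus strand) is shown with the core in capitals, which begins 98 bases before the start.
Atp6v1b1: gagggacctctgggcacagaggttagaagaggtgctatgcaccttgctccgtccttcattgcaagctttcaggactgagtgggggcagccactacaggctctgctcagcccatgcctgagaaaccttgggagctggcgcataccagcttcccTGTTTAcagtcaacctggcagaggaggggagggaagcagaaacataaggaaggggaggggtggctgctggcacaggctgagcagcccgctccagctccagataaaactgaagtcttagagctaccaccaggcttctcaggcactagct
A match of these letters describes the sequence only.

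**Figure D3:**
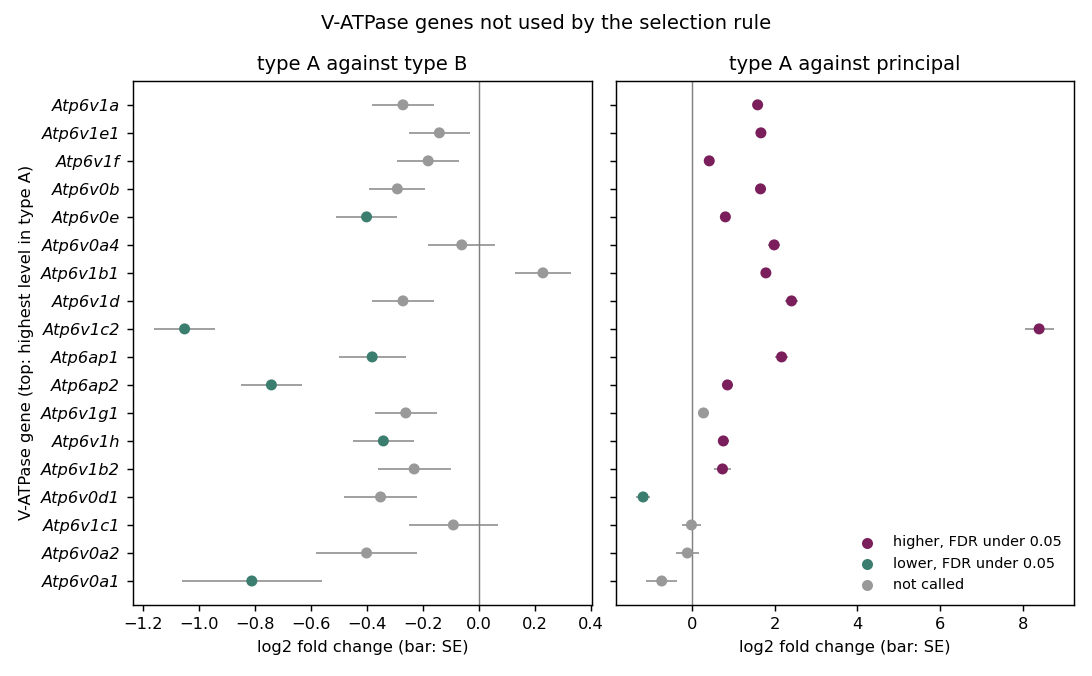
Log2 fold changes of the 18 tested V-ATPase genes, ordered by their level in type A cells, against type B cells (left) and principal cells (right), with bars for the SE of the edgeR fit over 3 libraries. Colour marks genes past an adjusted p of 0.05. In the left panel 6 genes lie below 0 with a call and none above it, and in the right panel 13 lie above 0 with a call and 1 below it.

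Of the 11 bicarbonate, proton exchange and carbonic anhydrase genes tested, 1 was higher and 4 were lower in type A than in type B cells, where 4.76% of all genes were higher and 5.78% lower. Car2, the cytosolic carbonic anhydrase II, was the most abundant at 2064, 2414 and 1821 CPM in type A and 2503, 3211 and 2323 CPM in type B cells (log2 fold change -0.37, SE 0.10, adjusted p = 0.024). Car12, a membrane-bound carbonic anhydrase, was at 444, 447 and 343 CPM against 1289.8, 1441 and 1120.3 CPM (log2 fold change -1.67, SE 0.12, adjusted p = 7.80e-09), and Car15 at 11.1, 12.1 and 10.1 CPM against 74.1, 101 and 124 CPM (log2 fold change -3.17, SE 0.20, adjusted p = 3.09e-09). All 3 carbonic anhydrases were lower in type A cells of every mouse. Slc4a9, the exchanger AE4 of type B cells, was also lower (log2 fold change -0.80, SE 0.16, adjusted p = 0.004), and the sodium and proton exchanger gene Slc9a4 was the one rise, with means of 16.2 CPM in type A and 5.56 CPM in type B cells. Against principal cells 3 rose and 3 fell, beside 10.6% of all genes higher and 9.19% lower, with Car2 and Car12 among the rises.

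Rhbg, the ammonia transporter on the blood side, and the chloride transport genes Clcn5 and Slc12a2 were higher in type A cells. Of 18 ammonium, potassium and chloride transport genes tested, 4 were higher and 1 was lower than in type B cells, against 4.76 and 5.78% of all genes. Rhbg was at 718, 629.8 and 630.3 CPM against 342, 502 and 357 CPM (log2 fold change 0.70, SE 0.15, adjusted p = 0.004), while Rhcg, on the urine side, was at 419.8, 377 and 513 CPM against 337, 368 and 439.9 CPM and did not pass (log2 fold change 0.17, SE 0.11, adjusted p = 0.380). Clcn5, an endosomal chloride and proton exchanger, was at 647, 726 and 439 CPM against 418, 627 and 337 CPM (log2 fold change 0.38, SE 0.11, adjusted p = 0.038). The WT mouse was lowest in Clcn5 in both classes, and the classes overlapped across mice. Slc12a2 also rose, by 1.76 on the log2 scale, and Clcn3 fell by 0.75. The proton and potassium pump gene Atp4a was at 42.7, 52.0 and 60.1 CPM in type A and 72.3, 76.6 and 48.4 CPM in type B cells and did not pass (adjusted p = 0.177).

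Among transcription and Notch genes, the 12 tested gave 2 rises and 3 falls against type B cells, with 4.76% rises and 5.78% falls among all genes. Besides Dmrt2, Hes1, a target of Notch signalling, was higher at 927, 1309 and 951 CPM against 610.0, 598 and 497 CPM (log2 fold change 0.87, SE 0.12, adjusted p = 5.58e-05). The Notch ligands lay on the other side. Jag1 was at 60.1, 64.1 and 51.8 CPM against 201, 247 and 179 CPM (log2 fold change -1.85, SE 0.14, adjusted p = 3.26e-08), and Dll1 at 2.37, 2.26 and 5.06 CPM against 36.6, 29.7 and 37.8 CPM (log2 fold change -3.38, SE 0.34, adjusted p = 1.45e-06). The type A and type B values of Hes1, Jag1 and Dll1 did not overlap in any library. Tfcp2l1, a factor of the intercalated lineage, was the most abundant at 1392, 1589 and 1390.1 CPM and was not called against type B cells (adjusted p = 0.086) but was higher than in principal cells (log2 fold change 0.92). Notch1 was at 42.7, 23.4 and 31.0 CPM and was not called in either comparison.

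Of 17 receptor genes tested, 4 were higher and 1 was lower than in type B cells (4.76 and 5.78% over all genes). Oxgr1, the receptor for alpha-ketoglutarate, was at 327, 359 and 296 CPM in type A and 169, 206 and 206 CPM in type B cells (log2 fold change 0.74, SE 0.13, adjusted p = 9.36e-04). P2ry14, the receptor for UDP-glucose, was at 56.1, 93.5 and 94.2 CPM against 43.7, 41.7 and 33.6 CPM (log2 fold change 0.96, SE 0.20, adjusted p = 0.003). Insr, the insulin receptor, was at 49.0, 49.8 and 45.5 CPM against 22.9, 30.2 and 27.9 CPM (log2 fold change 0.81, SE 0.17, adjusted p = 0.004). Together with Adgrf5 these were the rises of the list, and each was higher in type A cells of all 3 mice. The vasopressin receptor gene Avpr1a was at 149, 157 and 125 CPM in type A cells, at 143, 187 and 129.7 CPM in type B cells and without a UMI in principal cells. Among regulators of the pump, Tmem213 was at 1452, 1565 and 1558 CPM against 2055, 2280.4 and 2046 CPM, and Dmxl1 and Dmxl2, of the complex that assembles the pump, were also lower in type A cells, which made 3 falls and no rise among 10 genes tested. The TLDc gene Ncoa7, whose protein binds the pump, was at 256, 279.8 and 236 CPM and differed from principal cells (log2 fold change 3.33) but was not called against type B cells.

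Host defence genes did not move as a block. Of 14 antimicrobial and chemokine genes tested, 4 were higher and 2 were lower in type A than in type B cells, beside 4.76 and 5.78% of all genes. Defb1, a beta-defensin, was at 2111, 2532 and 2696 CPM in type A and 361, 590.2 and 645 CPM in type B cells (log2 fold change 2.20, SE 0.16, adjusted p = 2.14e-08), and its mean in principal cells was 1611 CPM. The type A values of Defb1 all exceeded the type B values. Spp1, osteopontin, was the most abundant of the list at 3556, 3294 and 3206 CPM and lower than in type B cells (log2 fold change -0.53, SE 0.12, adjusted p = 0.007). Lcn2, the neutrophil gelatinase-associated lipocalin, was at 47.4, 62.6 and 32.9 CPM in type A and 487, 48.5 and 29.5 CPM in type B cells and was not called (adjusted p = 0.067). A single type B pool, that of Aoah-/- replicate 2, stood far above the others. Pigr, Cx3cl1 and Slpi were the other rises, all under 120 CPM in type A cells. Ccl5 was the other fall, at 7.91, 20.4 and 5.06 CPM in type A and 85.1, 27.6 and 4.10 CPM in type B cells, where the WT mouse had no fall and a single type B cell of Aoah-/- replicate 2 held 179 UMIs of the lymphocyte list that Ccl5 belongs to.

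MHC class II genes summed to less in type A cells than in proximal tubule cells of each library. The summed level of the 11 listed genes was 166, 253 and 198 CPM in type A and 439, 817 and 307 CPM in proximal tubule cells. It was 263, 659 and 151 CPM in ascending limb cells, below type A cells in the WT mouse. In type B cells the sum was 113, 226 and 141 CPM, lower than in type A cells of each mouse. None of the 5 MHC class II genes tested was called against type B cells by edgeR. Cd74, the invariant chain, was the most abundant at 65.6, 103 and 89.1 CPM. In proximal tubule cells Cd74 had 179, 329 and 127 CPM, so that its pooled level was lower in type A cells of every library. The rule held type A cells to at most 1 UMI of Ptprc and Tyrobp. A list of 10 macrophage and monocyte genes summed to 134, 124 and 84.7 CPM in type A and 124, 248 and 53.2 CPM in proximal tubule cells. After thinning to 1000 UMIs, Cd74 was seen in 9.26, 14.3 and 8.62% of type A cells (41.7, 49.2 and 37.9% without thinning), in 0.8, 14.1 and 4.55% of type B cells (42.4, 54.8 and 25.8%) and in 12.5, 28.3 and 7.49% of proximal tubule cells (42.0, 58.2 and 31.8%). The 95% intervals of type A and type B cells overlapped in Aoah-/- replicate 3 and the WT mouse but not in Aoah-/- replicate 2, where they were 4.53 to 16.4 and 0.0203 to 4.38%. Whether these UMIs came from the cells or from free RNA was not tested. Against principal cells 4 of the 5 genes were lower, beside 9.19% of all genes. Aoah-/- replicate 3 held most of the principal signal, at 1891 CPM against 239.9 and 83.3 CPM in the other libraries. In the WT mouse the summed level ran the other way, with 198 CPM in type A and 83.3 CPM in principal cells. In principal cells the macrophage and monocyte genes summed to 156, 303 and 59.8 CPM and the lymphocyte genes to 88.6, 155 and 8.54 CPM. The MHC class I genes summed to 1203, 1561 and 1182 CPM in type A and 1056, 1095 and 1036 CPM in type B cells, higher in type A cells of each mouse. Of 12 MHC class I genes, H2-Q4 alone was called (log2 fold change 0.83, SE 0.18, adjusted p = 0.004), and of 11 interferon-induced genes Oasl2 alone (log2 fold change 1.25, SE 0.26, adjusted p = 0.004). These are single calls in lists of this size, where 4.76% of all genes were called higher.

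Of 20 immediate early and heat shock genes tested, 9 were higher and 0 lower than in type B cells, with a median log2 fold change of 0.36, beside 4.76% higher and 5.78% lower among all genes. Against principal cells 12 were higher and 0 lower, beside 10.6% and 9.19% among all genes. Jun, of the AP-1 factor, was the most abundant at 2934, 3980.4 and 3337 CPM in type A and 2222, 2542 and 2479 CPM in type B cells (log2 fold change 0.47, SE 0.11, adjusted p = 0.010). Hspb1, a small heat shock protein, was at 145, 295 and 233 CPM against 46.3, 91.2 and 59.1 CPM (log2 fold change 1.74, SE 0.12, adjusted p = 7.24e-09). Hspa1b, an inducible HSP70, was at 197, 411 and 297 CPM against 74.5, 131 and 98.5 CPM (log2 fold change 1.52, SE 0.15, adjusted p = 7.95e-07). In each of these genes the type A value was higher within every mouse, and Aoah-/- replicate 3 had the highest type A value. Egr1, Junb, Zfp36, Ier2, Hspa1a and Dnajb1 were the other rises, and Fos, at 1634, 2773 and 2085 CPM against 1424, 2074 and 2081 CPM, was not called. Hspa1a and Hspa1b are near-identical copies, and their reads may be split between them.

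Of 22 tubule injury genes, 3 were higher and 5 were lower than in type B cells, and the shares of all genes, here and for the lists that follow, were 4.76 and 5.78%. The rises were Sox9, Cd24a at 468, 596 and 466 CPM against 261, 276 and 307 CPM (log2 fold change 0.83, SE 0.12, adjusted p = 1.23e-04) and Timp3 at 356, 309 and 449 CPM against 197, 231 and 189 CPM (log2 fold change 0.80, SE 0.14, adjusted p = 6.52e-04). Among the falls, Krt7 was at 361, 282 and 282 CPM against 576, 529 and 515 CPM (log2 fold change -0.84, SE 0.11, adjusted p = 3.57e-05) and S100a10 at 213, 313 and 298 CPM against 547, 481 and 575 CPM (adjusted p = 4.78e-05 by edgeR). The list therefore moved in both directions, with a median of -0.22. Metallothioneins were lower, Mt1 at 735, 647 and 377 CPM against 1333, 1061 and 810.1 CPM (log2 fold change -0.92, SE 0.13, adjusted p = 8.32e-05) and Mt2 with a log2 fold change of -1.31, and of 19 antioxidant and metallothionein genes 1 rose, catalase (Cat, log2 fold change 0.77, SE 0.14, adjusted p = 0.001), and 3 fell. Of 10 tight junction genes, Cldn8 was the one rise (log2 fold change 0.37, SE 0.11, adjusted p = 0.038).

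Nuclear genes of the respiratory chain stood above principal cells in type A cells. Of 26 tested, 0 were higher and 2 lower than in type B cells (Uqcrfs1 and Ndufa1, median of the list -0.23), beside 4.76 and 5.78% of all genes. Against principal cells 19 were higher and 0 lower, with a median of 0.52, beside 10.6 and 9.19% of all genes. Their summed level was 21565.5, 22033 and 21407 CPM in type A cells. Cycs, cytochrome c, was at 1079, 1101 and 1047 CPM in type A cells and at 475, 359 and 337 CPM in principal cells (log2 fold change 1.28, SE 0.13, adjusted p = 7.22e-07), and the groups did not overlap. Of 22 genes of mitochondrial biogenesis and fuel use, Glud1, glutamate dehydrogenase, and Glul, glutamine synthetase, were higher than in type B cells (log2 fold change 0.51, SE 0.12, adjusted p = 0.009 and log2 fold change 1.20, SE 0.27, adjusted p = 0.006). Mitochondrially encoded UMIs were 22.4, 20.1 and 21.7% of all UMIs of type A cells and 22.6, 19.2 and 20.6% of those of type B cells. Their median share per cell was 22.2, 18.4 and 20.3% in type A cells and higher in principal cells, at 30.2, 21.6 and 27.7%.

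Against principal cells the 5 largest rises by fitted fold change were genes without any UMI in the principal pools. Their folds are therefore given as lower limits against 3 UMIs over the 3 pools together. Type A cells held at least 72.6-fold more Dmrt2, at least 55.7-fold more Avpr1a and at least 51.0-fold more 2610016A17Rik. For Cpsf4l and Pdlim3 the limits were 32.5-fold and 31.5-fold. On the other side, Apela, a ligand of the apelin receptor, was at 23.7, 25.6 and 68.9 CPM in type A and 550.1, 501 and 739 CPM in principal cells (log2 fold change -4.15, SE 0.18, adjusted p = 7.93e-12), and Kcne1, a potassium channel subunit, at 22.9, 19.6 and 48.7 CPM against 334, 282 and 374 CPM (log2 fold change -3.62, SE 0.19, adjusted p = 1.07e-10). Both genes were highest in type A cells of the WT mouse, which also held more of other principal cell RNA. Stc1, Mcoln3 and the water channel gene Aqp4 completed the 5 largest falls. The principal pools were small, with 46, 65 and 65 cells, and DESeq2 called 645 higher and 621 lower.

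Between the libraries, type A cells made up 0.699, 0.640 and 0.874% of the kept barcodes, with exact Clopper-Pearson 95% intervals of 0.574 to 0.844, 0.533 to 0.761 and 0.723 to 1.05%, which cover counting error only. The mean of the Aoah-/- mice was 0.204 percentage points below the WT mouse, and the intervals overlapped. Without a UMI minimum the shares were 0.505, 0.640 and 0.648% and the difference -0.0756. Type B cells numbered 125, 135 and 66, or 0.810, 0.686 and 0.497% of the kept barcodes, with the lowest share in the WT library. Per 100 type A and type B cells, type A cells numbered 46.4 (39.8 to 53.0), 48.3 (42.1 to 54.5) and 63.7 (56.3 to 70.7). The value of the WT library was the highest, with a mean difference of -16.4 cells per 100 and an SD of 1.36 between the Aoah-/- libraries. The intervals of both Aoah-/- libraries included an even split of the types, and single alternatives gave them 50 (replicate 2, mitochondrial limit of 20%), 51.9 (replicate 3, at least 3000 UMIs) and 52.8 (replicate 3, without the distal cells described next), while the WT value stayed between 63.3 and 66.3. With 1 WT mouse the difference has no replicate check and was not tested. Without cells that held over 2 UMIs of other distal genes it was -12.4 per 100, and the share differed by -0.0388 percentage points.

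Those distal genes marked a difference between the libraries within the type A cells. At least 3 UMIs of Slc12a3, Calb1 and Aqp2 in sum, genes of the distal convoluted and connecting tubule and of principal cells, were held by 17 of 108 (15.7%), 14 of 126 (11.1%) and 34 of 116 (29.3%) type A cells, with intervals of 9.45 to 24.0, 6.21 to 17.9 and 21.2 to 38.5%. In type B cells the shares were 25.6, 25.9 and 28.8%. The type A cells with these UMIs held more UMIs in each library, with medians of 13818, 14716.5 and 17276.5 UMIs against 10257, 9591 and 11550.5 in the others. The marker list of distal convoluted tubule cells, 6 of 6 genes detected in every library, summed to 876, 1033 and 2254 CPM in type A cells, with Wnk1 the most abundant in both Aoah-/- libraries and Calb1 in the WT library. The list of principal cells summed to 889, 740.0 and 1532 CPM with Hsd11b2 most abundant, 10 of its 11 genes having a UMI in Aoah-/- replicate 2, where Aqp4 was at 0, and 11 in the others, against 7673, 8446 and 11281 CPM in principal cells. The proximal tubule list summed to 1592, 1565 and 1175 CPM, against 61386, 67765 and 70051 CPM in proximal cells, and the ascending limb list of 7 genes, with Slc12a1 among them, to 240.4, 319.8 and 488 CPM. Lrp2, Slc34a1 and Slc12a1 in these 2 lists were limited by the rule.

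The rule itself limited leukocyte RNA through Ptprc and Tyrobp, so that low leukocyte sums are partly fixed by it. The macrophage and monocyte list of 10 genes summed to 134, 124 and 84.7 CPM with Lyz2 most abundant, the lymphocyte list of 9 to 16.6, 37.7 and 8.22 CPM with Cd3e at 0 in all 3 libraries, and the granulocyte list of 5 to 26.9, 47.5 and 8.22 CPM. The endothelial list of 8 summed to 79.1, 22.6 and 55.0 CPM and the fibroblast list of 7 to 7.12, 3.02 and 106 CPM. In the WT library 1 cell held 155 of the 167 fibroblast UMIs, and single cells held 51.0% of the endothelial UMIs in Aoah-/- replicate 2 and 66.7% in the WT library. Haemoglobin RNA came mostly from few cells in the Aoah-/- libraries and was spread over many in the WT library, where Hbb-bs was found in 87 cells and 1 cell held 5.17% of its UMIs. The erythroid list of 5 genes summed to 1714, 1679 and 215 CPM with Hbb-bs most abundant, and 3, 1 and 0 type A cells held over 20 haemoglobin UMIs, the highest having 1372, 2084 and 13. The median type A cell had 0, 1 and 3 haemoglobin UMIs. Red cells had been lysed before capture, and Hba-a1 and Hba-a2 are near-identical copies.

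**Figure D4:**
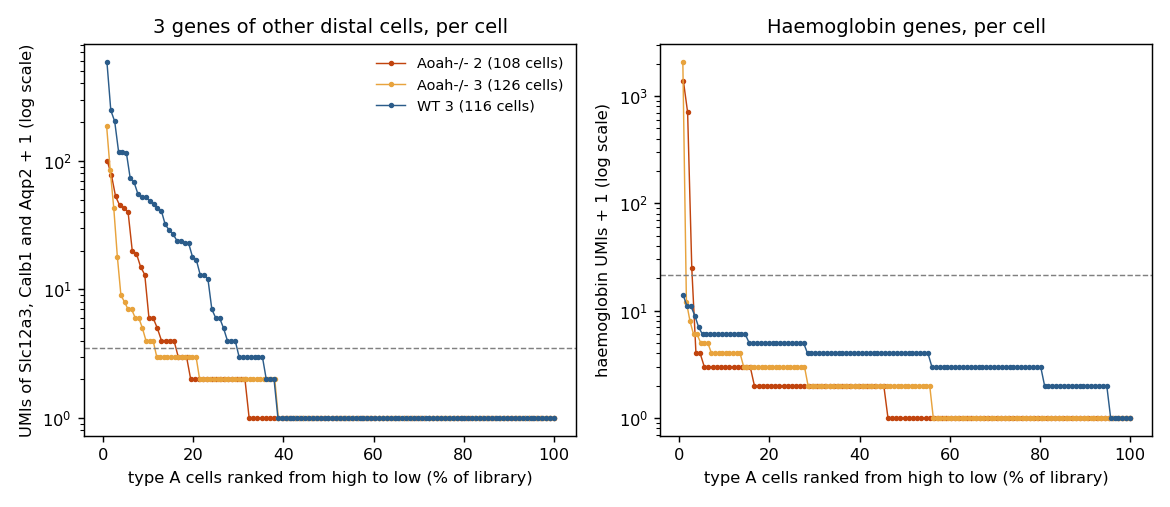
UMIs per type A cell of Slc12a3, Calb1 and Aqp2 (left) and of haemoglobin genes (right), with 1 added on a log axis, for the cells of each library ranked from high to low and shown as % of the library. The dashed lines separate the cells with at least 3 distal UMIs or over 20 haemoglobin UMIs. On the left, 29.3% of the WT cells lie above the line, while on the right single Aoah-/- cells reach 1372 and 2084 UMIs.

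Between the genotypes, summed levels in type A cells were set side by side for 4 gene groups. The log2 ratio of the mean of the Aoah-/- libraries to the WT library was 0.08 for the summed V-ATPase genes, 0.03 for the respiratory chain, 0.01 for tubule injury genes and 0.08 for MHC class II genes, with SDs between the Aoah-/- libraries of 0.07, 0.02, 0.01 and 0.43. All 4 values changed sign under some alternative choice of cells or libraries, and the MHC class II value was 0.35 without Aoah-/- replicate 2, -0.25 without Aoah-/- replicate 3 and -0.09 with at least 3000 UMIs per barcode. Other lists lay apart by more, as the bicarbonate and carbonic anhydrase genes outside the rule summed to 2732, 3124 and 2395 CPM and the pump regulators to 2759, 2952 and 3166 CPM. Of 3160 genes that reached 50 CPM in either genotype, 14 (0.443%) were at least 1.5-fold above the WT library in both Aoah-/- libraries and 42 (1.33%) at least 1.5-fold below it. Of the listed genes, 3 lay above and 4 lay below. Above lay Sox9 of 17 measured tubule injury genes and Mt1 of 17 antioxidant and metallothionein genes. The other was 1 of 12 ammonium, potassium and chloride transport genes. Below lay Kcnj16 of the same 12, Pth1r of 5 receptor genes and Cxcl10 of 7 antimicrobial and chemokine genes. Hsph1, of 20 immediate early and heat shock genes, also lay below. Values of these 4 genes without the distal cells are not reported here.

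Among the 10 largest rises, 4 were haemoglobin genes carried by few cells. Hbb-bs was at 1015, 1033 and 110.0 CPM, and 1 cell held 65.3% of its UMIs in Aoah-/- replicate 2 and 1 cell 95.0% in Aoah-/- replicate 3. Without the 4 cells with over 20 haemoglobin UMIs the log2 ratio of Hbb-bs moved from 3.11 to -1.32, and the ratios of Hba-a1, Hba-a2 and Hbb-bt also turned negative. That limit counts these same genes and took type A cells from the Aoah-/- libraries only, so that lower ratios were fixed by it. Gm8730, a processed pseudogene whose reads may be shared with its parent gene, was at 58.5, 47.5 and 8.22 CPM (log2 ratio 1.79) and also differed in type B (2.43), principal (2.30) and proximal tubule cells (1.67). Nupr1, a stress-induced chromatin protein, was at 351, 342 and 149.8 CPM (log2 ratio 1.16, SD 0.02), against 79.8, 82.4 and 71.4 CPM in type B cells (log2 ratio 0.16), and the ratio was 0.87 in the ascending limb, 0.29 in the proximal tubule and -1.74 in principal cells. The last 2 rest on low levels, 9.16, 13.2 and 7.32 CPM in the proximal tubule and 2.61, 0 and 27.8 CPM in principal cells. In type A cells the exact Poisson 95% intervals of Nupr1 were 319 to 385, 312 to 375 and 131 to 170.2 CPM, which cover counting error only, and 1 cell held 27.9% of its UMIs in Aoah-/- replicate 2. Mt1 was at 735, 647 and 377 CPM (log2 ratio 0.86), the phosphate transporter gene Slc20a1 at 59.3, 76.2 and 34.8 CPM (0.80), the secreted peroxidase gene Gpx3 at 780.4, 591 and 399 CPM (0.77) and Runx1 at 74.3, 73.9 and 39.8 CPM (0.76). The ratios over all kept barcodes were 0.51 for Mt1, 0.43 for Slc20a1, 0.22 for Gpx3 and 0.56 for Runx1. In the same order they were 1.26, 0.16, 1.19 and 0.18 in principal cells. In the proximal tubule they were 0.90, 0.42, 0.51 and 0.46, and in type B cells 0.56, -0.30, 0.20 and -0.38. In principal cells Slc20a1 was at 2.61, 9.29 and 4.27 CPM and Runx1 at 13.0, 18.6 and 12.8 CPM. Runx1 was at 8.04, 8.91 and 3.39 CPM in the proximal tubule. The 10 CPM added to each level weighs on such ratios.

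Genes of neighbouring tubule segments were among the 10 largest falls. Slc12a3, the thiazide-sensitive cotransporter of the distal convoluted tubule, was at 49.8, 46.8 and 315 CPM (log2 ratio -2.48, SD 0.05). Kl, klotho, was at 62.5, 95.0 and 407 CPM (-2.23). Calb1, calbindin, was at 161, 189 and 843 CPM (-2.20), and S100g, another calcium-binding protein, at 727, 2003 and 4921 CPM (-1.84). All 4 genes were highest in the WT library, as the choice of the falls required. With the type A cells restricted to at most 2 UMIs of Slc12a3, Calb1 and Aqp2, Slc12a3 moved to 6.03, 15.7 and 5.14 CPM and Kl to 19.1, 32.3 and 19.5 CPM, and S100g to 472, 509 and 451 CPM. The limit itself fixes low values of Slc12a3 and Calb1. Of the other falls, the log2 ratios under it were 0.27 for Kl, 0.32 for Sfrp1, 0.12 for S100g, 0.26 for Kcnj1, -0.35 for Abca13, -0.18 for Pgam2 and -2.60 for Dcn. Cited2, a transcriptional cofactor, was at 21.1, 24.0 and 51.4 CPM under it (-0.92) and at 30.0, 33.2 and 111 CPM without it. Its values in type B cells were 56.9, 44.8 and 70.6 CPM. The matrix gene Dcn, the one fall that grew under the limit, was at 7.12, 2.26 and 54.4 CPM, and 1 cell of the WT library held 89.5% of its UMIs. Its log2 ratio was -2.13 in all type A cells, -0.81 in type B, -2.36 in principal, -2.64 in ascending limb and -3.70 in proximal tubule cells. Over all kept barcodes it was -4.44. Under the same limit, 13 genes were at least 1.5-fold above and 35 at least 1.5-fold below WT of 3216.

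**Figure D5:**
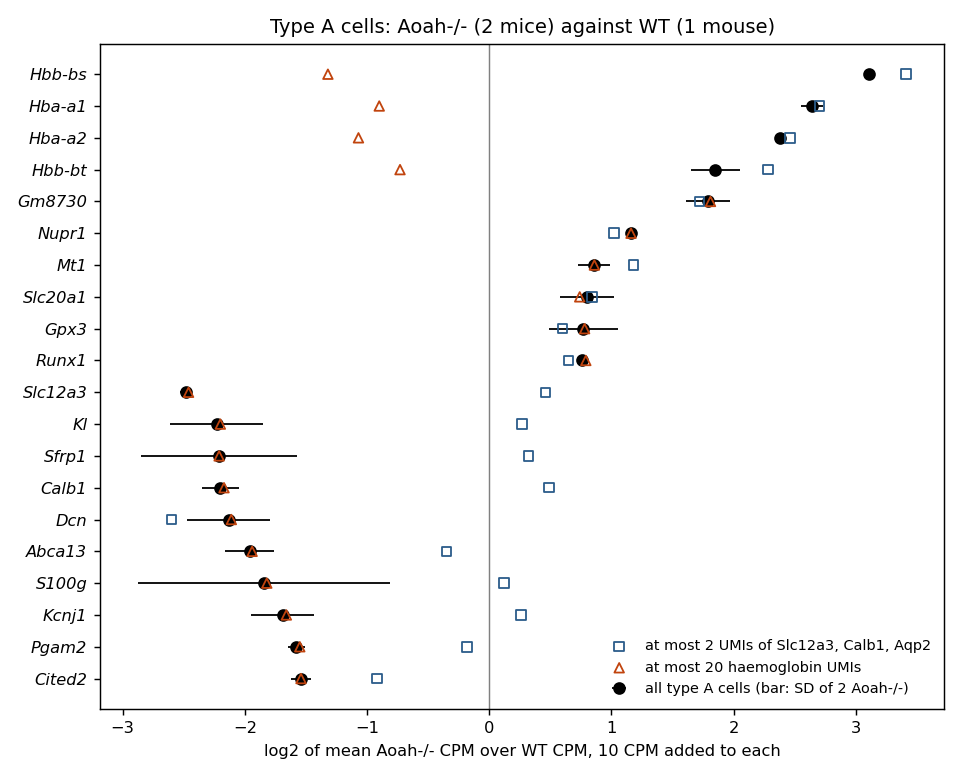
Log2 ratio of the mean Aoah-/- CPM to the WT CPM in type A cells, with 10 CPM added to each, for the 10 largest rises and falls. Filled points are all type A cells with the SD between the 2 Aoah-/- libraries, squares the cells with at most 2 UMIs of Slc12a3, Calb1 and Aqp2, and triangles the cells with at most 20 haemoglobin UMIs. The haemoglobin genes, which the haemoglobin limit itself counts, cross 0 under it. Of the 10 falls, 6 cross 0 under the distal limit, among them Slc12a3 and Calb1, which that limit counts.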

How the data were processed

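Filtered single-cell matrices held UMI counts per gene and barcode as the authors deposited them, with 1 matrix per mouse. Per the submitters' processing notes the reads were handled with Cell Ranger 3.1.0 and STAR on mm10 and then Seurat 4.2.0, whereas the file headers name Cell Ranger 6.1.2. Filters on barcodes and the rules for type A, type B and principal cells are given with the results. The rules that chose the proximal tubule and ascending limb cells are not given here. The type A cells, gene lists and tests were chosen with earlier results of these data known. UMIs were summed per class and mouse (3 classes and 3 libraries in 1 fit, type A, type B and principal cells, the last with UMIs of at least 2 principal cell genes) and tested with edgeR 4.0.16 in R 4.3.3, with TMM scaling, filterByExpr and the mouse as a block, since the classes of a number came from the same mouse. The correlations of their deviations lay between -0.01 and 0.21. Benjamini-Hochberg adjustment ran over all genes tested. DESeq2 1.42.0 served as an alternative. Intervals came from scipy 1.17.1 in Python 3.11.15. Genotype was not tested, and its log2 ratios had 10 CPM added.

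The genes named were, against type B cells, the 15 largest rises and 10 largest falls with at least 50 CPM in the higher class and 1 direction in all 3 libraries (5 and 5 against principal cells), in each list the most abundant and most different members, and between genotypes the 10 largest rises and falls. Further list members were named after their values were seen. On simulated data with known changes among 9173 genes, 84% of 2-fold and 100% of 4-fold changes were recovered for type A against type B, and 54% and 95% against principal cells, with 8 of 192 and 9 of 158 calls false. The changes were planted only in genes with at least 5 UMIs expected in the smallest pool. All genes had the same spread and the mice did not differ, so that these rates were not measured for lower genes or genes of other spread. Gene positions were read from the GENCODE M21 annotation of GRCm38, and promoter windows from RefSeq's tables of GRCm38.p6. Single genes of the lists that are counted but not named are not reported here.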

Additional observations from a re-analysis of the deposited data

Results flagged for a closer look

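Several differences between genotypes in type A cells had the opposite sign in type B cells in both Aoah-/- libraries, and the difference between the cell types was not tested. For the haemoglobin genes, the log2 ratio of Aoah-/- to WT was 3.11 in type A and -2.32 in type B cells for Hbb-bs, 2.64 and -1.91 for Hba-a1, 2.38 and -1.66 for Hba-a2, and 1.85 and -2.33 for Hbb-bt. The type A values rested on 4 cells, as described above, and in type B cells a single cell of the WT library held 844 of the 1071 haemoglobin UMIs there. For Slc20a1 the ratios were 0.80 and -0.30, and for Runx1 0.76 and -0.38.

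Cells that met the intercalated rule but neither the type A nor the type B rule lie outside the comparisons, and they were more frequent in the Aoah-/- libraries. They made up 8.98% of the intercalated cells of Aoah-/- replicate 2 and 17.9% of those of Aoah-/- replicate 3, against 2.15% in the WT library (23, 57 and 4 cells), with median depths of 9789, 2329 and 18995 UMIs. Of these 84 cells, 40 had no UMI of either set of class genes.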

How the results depend on the processing

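All 25 genes named against type B cells and all 10 named against principal cells kept their direction and call under every alternative that returned a value, except Lsamp, whose call was lost with DESeq2. The counts of calls moved. With a mitochondrial limit of 20%, which left 7515 genes to test, 200 were higher and 205 lower than in type B cells and 459 and 410 than in principal cells. With each cell thinned to 1000 UMIs, which left 1807 genes, the counts were 65 and 63, and 183 and 165. DESeq2 gave 190 and 257 against type B cells, and 645 higher than in principal cells. Leaving out each mouse gave 280 to 321 higher and 307 to 355 lower than in type B cells. Counts rose to 624 and 709 against type B cells when these 2 classes were fitted alone and to 528 and 687 with all genes with a UMI. Without the replicate block (the mouse as pairing), 371 and 463 were called against type B cells and 958 and 822 against principal cells.

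The share of type A cells differed by -0.146 percentage points with the 20% limit, by -0.0756 without a UMI minimum and by -0.0388 without cells over 2 UMIs of Slc12a3, Calb1 and Aqp2, and type A cells per 100 of both types by -17.9 with the 20% limit and -12.4 without those distal cells. The V-ATPase log2 ratio became 0.01 as the mean of the cells' own CPM, -0.02 in cells without an immune marker UMI and -0.06 without the distal cells. The MHC class II ratio was 0.55 without immune UMIs. The respiratory chain ratio was 0.09 with the 20% limit, -0.03 without the 10% of cells with the most UMIs, -0.03 as a mean of cells and -0.04 without immune UMIs. The injury ratio was -0.01 with at least 3 class UMIs, 0.06 without the deepest 10%, 0.12 without immune UMIs, 0.03 with at most 20 haemoglobin UMIs and 0.05 without the distal cells. The limits at 20 haemoglobin UMIs and 2 distal UMIs were chosen after seeing the data, and they count the haemoglobin genes and Slc12a3 and Calb1 themselves. With the former, the ratios of Hbb-bs, Hba-a1, Hba-a2 and Hbb-bt were -1.32, -0.90, -1.07 and -0.73. With the latter, those of Slc12a3, Kl, Sfrp1, Calb1, S100g and Kcnj1 were 0.46, 0.27, 0.32, 0.49, 0.12 and 0.26. The causes of the other shifts were not tested. Type A cells numbered 108 to 126 per library, which limits what low genes can show.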
